A study of Mus musculus with 12 samples.

Results

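The genes described here are 10 transcriptional feedback and output genes of the ERK pathway: the MAP kinase phosphatase genes Dusp4, Dusp5 and Dusp6, the Sprouty genes Spry1, Spry2 and Spry4, the ETS transcription factor genes Etv4 and Etv5, the AP-1 subunit gene Fosl1 and the cyclin D1 gene Ccnd1. They were listed by symbol for their known role, and the list was drawn up with earlier results of these data known. All 10 were among the 18211 genes of the expression table, and all 10 were among the 13563 genes with enough reads to be tested. RNA was sequenced from subcutaneous tumors of MC38, a mouse colorectal adenocarcinoma cell line, grown in C57BL/6 mice. The mice were female and were 5 weeks old when purchased. The mice were divided into groups 7 days after the cells were injected, and each of the 4 groups gave 3 tumors. The CK group received vehicle. The PB-020 group received PB-020, an inhibitor of the insulin-like growth factor receptor IGF-1R, by daily oral gavage at 50 mg/kg. The anti-PD-1 group received intraperitoneal injections of an antibody that blocks PD-1, an inhibitory receptor on activated T cells. The dose was 200 µg per mouse on days 9, 12, 15 and 18 after the cells were injected. The PB-020+anti-PD-1 group, called the combination below, received both agents. Every library was made from whole ground tumor, so tumor cells and host cells were measured together.

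Receptor tyrosine kinases such as IGF-1R activate Ras, which drives the kinase relay from RAF through MEK to ERK. Active ERK enters the nucleus and raises transcription of genes that restrain the same pathway: DUSP phosphatases remove the activating phosphates from ERK, and Sprouty proteins act further upstream, between receptor and RAF. ERK also raises output genes such as Etv4, Etv5, Fosl1 and Ccnd1, and the RNA of these feedback and output genes is commonly read as a transcriptional record of ERK activity. Several of them also answer to other inputs, and they can be expressed in immune and stromal cells as well as in tumor cells.

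Library depth was even, at 16545394 to 17217035 expected counts per tumor. Intestinal epithelial markers were low in these tumors: of 8, only 1 passed the filter on low counts, Cdx2 was listed at 0 in 10 of 12 libraries and Krt18 in 7. The basal keratin gene Krt14 was not low, at 76.0 to 206 FPKM. The other keratinocyte markers listed, Krt5, Krt10 and Krt1, had medians of 0.215, 1.175 and 0.1 FPKM over the 12 tumors. Krt5 was at 0 in 4 libraries and Krt1 in 1. The summed level of 10 T cell markers was 13.9 to 19.0 FPKM in CK, 20.6 to 25.9 in PB-020, 30.8 to 77.6 in anti-PD-1 and 37.6 to 60.4 in the combination, with none of the 10 at 0 in any tumor. Of these 10, 9 passed as higher in tumors with antibody than in tumors without it (edgeR, adjusted p under 0.05). The sum of 6 erythroid markers ran the other way, from 449 to 1556 FPKM without antibody and from 101 to 379.6 with it, and 5 of 5 tested were lower with antibody. Anti-PD-1 tumor 1 stood apart: it had the highest T cell sum and a skeletal muscle marker sum of 552 FPKM, against 10.3 to 61.1 in the other 11 tumors. CK tumor 3 stood apart as well: its sum of 6 neutrophil markers was 412 FPKM against 6.05 to 33.0 in the other 11 tumors, and its sum of 4 adipocyte markers was 277 FPKM against 29.2 to 64.1. In these lists Ly6g was listed at 0 in 8 libraries and Adipoq in 3. For the 10 members, calls that rest on either tumor are given with and without it, in some comparisons only as the members called. The other pathway genes are given with all 12 tumors only, and the part of these cells in the results was not tested. In bulk tumors, fewer cells of a type and less RNA per cell cannot be told apart.

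The promoters of Dusp5 and Spry2 are shown because these genes had the largest increase and the largest decrease among the 10 in tumors given anti-PD-1. Each window runs from 250 bases before to 50 bases after the RefSeq start in GRCm38.p6. Capitals mark CArG boxes, the element bound by serum response factor, which works with ERK-phosphorylated ETS partners. The Dusp5 window lies on the plus strand at chr19:53528895-53529194, and the Spry2 window on the minus strand at chr14:105896770-105897069.
Dusp5: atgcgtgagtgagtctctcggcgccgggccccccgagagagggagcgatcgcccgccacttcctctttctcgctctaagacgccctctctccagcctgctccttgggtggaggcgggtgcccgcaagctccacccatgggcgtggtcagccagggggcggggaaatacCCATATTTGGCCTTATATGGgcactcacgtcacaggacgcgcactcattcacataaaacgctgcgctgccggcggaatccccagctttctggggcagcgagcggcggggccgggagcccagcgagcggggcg
Spry2: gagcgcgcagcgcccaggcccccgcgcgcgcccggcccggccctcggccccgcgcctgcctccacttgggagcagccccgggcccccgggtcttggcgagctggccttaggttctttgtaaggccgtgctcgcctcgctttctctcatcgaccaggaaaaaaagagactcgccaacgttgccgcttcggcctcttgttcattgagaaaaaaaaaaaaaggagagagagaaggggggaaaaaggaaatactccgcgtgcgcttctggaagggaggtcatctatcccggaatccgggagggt

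The Dusp5 window held a pair of CArG boxes with no base between them, CCATATTTGG from 82 to 73 bases before the start and CCTTATATGG from 72 to 63 bases before it. A CArG box on either strand was present in 1.63% of the 32851 mouse promoter windows of this length. The other motifs searched on both strands were the AP-1 site TGANTCA, found in 7.81% of windows, the cyclic AMP response element TGACGTCA, found in 1.79%, and the ETS site CCGGAAGT, found in 3.89%. None of these letters occurred in the Dusp5 or Spry2 window, nor did any of the 4 motifs occur in the windows of Dusp6, Spry1 or Etv5. These matches describe the sequence and were not tested as binding sites.

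The first question was whether either agent moved the feedback and output genes when all 12 tumors were used. Anti-PD-1 did, and in opposite directions for different members. In the 6 tumors with antibody, Dusp4, Dusp5, Etv4 and Ccnd1 were higher and Spry2 and Spry4 were lower than in the 6 tumors without it, at a Benjamini-Hochberg adjusted p below 0.05 in edgeR's quasi-likelihood test. PB-020 moved none. Across all genes tested, anti-PD-1 raised 11.8% and lowered 12.3%, so 4 of 10 members higher and 2 of 10 lower are to be read against those shares. The median log2 change of the 10 members was 0.09 with anti-PD-1, beside a median of 0.000045 over all 13563 genes. The T cell and erythroid marker sums moved with the antibody too, and other sums did as well. The cytotoxic lymphocyte sum was 33.8 to 80.3 FPKM without antibody and 68.1 to 247 with it, with 4 of 6 markers higher and 0 lower. For fibroblasts the sums were 1760 to 2518 and 883 to 1763, with 1 of 9 markers higher and 4 lower. For keratinocytes they were 78.6 to 138 and 132 to 208, with 1 of 4 markers higher and 0 lower. The part of any of these cells in the members' changes was not tested.

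**Figure D1:**
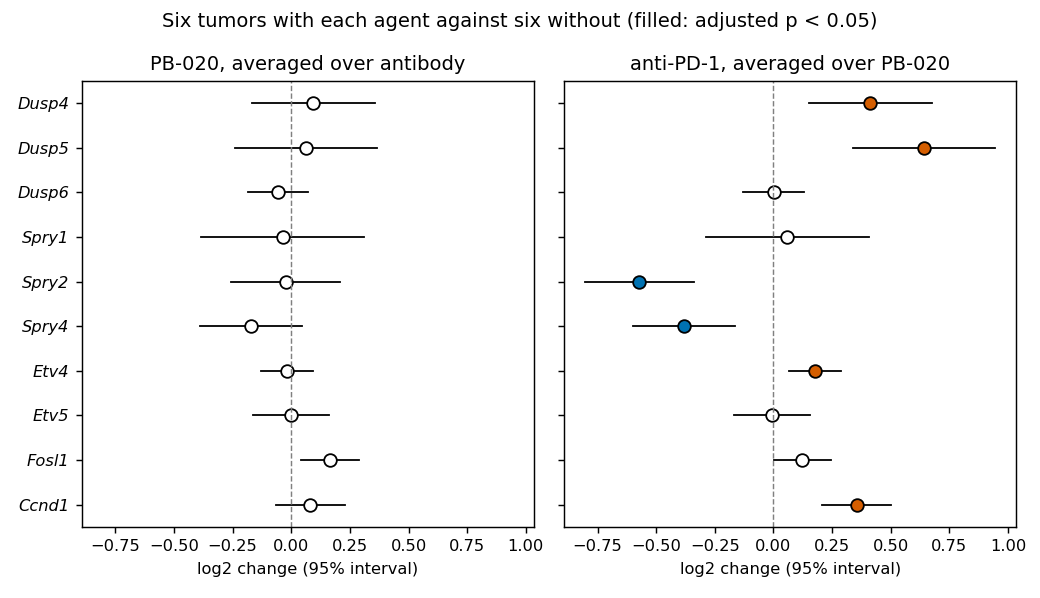
Log2 change of each of the 10 genes (horizontal axis, with 95% interval) for PB-020 (left) and anti-PD-1 (right), each from 6 tumors with the agent and 6 without; filled points have an adjusted p under 0.05, orange higher and blue lower. In the right panel 4 genes lie above 0 and 2 below with filled points, while every point in the left panel is open.

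Dusp5 (NCBI gene 240672, chromosome 19, 53529145 to 53541809) encodes a nuclear phosphatase that inactivates ERK. Gene positions are those of the RefSeq annotation of GRCm38.p6. The Dusp5 level was 5.13, 4.39 and 6.89 FPKM in the CK tumors, 5.71, 6.95 and 4.76 in the PB-020 tumors, 9.50, 6.97 and 9.48 in the anti-PD-1 tumors and 9.76, 9.15 and 7.56 in the combination tumors. Every tumor with antibody was above every tumor without it, by a narrow gap between 6.95 and 6.97. Over all genes tested, on log2 CPM with TMM scaling, 8.6% separated the 6 tumors with antibody from the 6 without in this way, and of the 10 members Dusp5 and Ccnd1 did. The log2 change with anti-PD-1 was 0.64 (SE 0.14, 95% interval 0.34 to 0.95, adjusted p = 0.00654), a 1.56-fold increase. This was the largest change among the 10 genes. At 75 to 164 expected counts per tumor Dusp5 was, after Spry1, the least deeply counted member. An antisense gene is annotated across Dusp5, and whether the counting used strand is not given in the sources used here. Genes on the other strand are also annotated over Fosl1, Ccnd1, Spry1 and Spry4, and reads of such pairs cannot be told apart without strand.

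Dusp4 (NCBI gene 319520, chromosome 8, 34807610 to 34819894) encodes a related nuclear phosphatase that also acts on the kinases JNK and p38. It was at 14.4, 15.3 and 12.2 FPKM in CK, 18.9, 13.2 and 18.3 in PB-020, 25.7, 18.3 and 19.0 in anti-PD-1 and 23.1, 17.2 and 18.5 in the combination. The tumors with antibody were all above CK and overlapped those given PB-020 alone. Its log2 change with anti-PD-1 was 0.41 (SE 0.12, 95% interval 0.15 to 0.68, adjusted p = 0.0291). The call was lost without anti-PD-1 tumor 1 (0.33, adjusted p = 0.0511), without CK tumor 3 (0.37, adjusted p = 0.0551) or without combination tumor 1 (0.34, adjusted p = 0.0664). Anti-PD-1 tumor 1, the tumor with the highest Dusp4, was also the one with the highest T cell and muscle sums, and the part of those cells in the result was not tested.

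Dusp6 (NCBI gene 67603, chromosome 10, 99263231 to 99267489) encodes the cytoplasmic phosphatase most specific for ERK and is widely used as a readout of ERK signalling. It was at 36.1, 35.5 and 40.3 FPKM in CK, 37.1, 34.3 and 31.2 in PB-020, 39.4, 32.1 and 35.4 in anti-PD-1 and 36.2, 33.1 and 37.1 in the combination. All 4 groups overlapped. The log2 change was 0.00041 with anti-PD-1 (95% interval -0.13 to 0.13) and -0.06 with PB-020 (95% interval -0.18 to 0.07). With 1399 to 1787 expected counts per tumor, the intervals leave out any change of Dusp6 as large as that of Dusp5. The 3 phosphatase genes differed in their values: Dusp4 and Dusp5 rose with anti-PD-1, and Dusp6 had a change near 0. That difference between genes was not itself tested.

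Of the 3 Sprouty genes, whose products hold back receptor signalling to Ras and RAF, Spry2 and Spry4 fell with anti-PD-1 and Spry1 did not pass. Spry2 (NCBI gene 24064, chromosome 14, 105891947 to 105896819) was at 13.7, 16.4 and 20.3 FPKM in CK, 19.2, 15.4 and 17.7 in PB-020, 9.98, 14.1 and 11.7 in anti-PD-1 and 9.98, 11.3 and 11.7 in the combination. Only anti-PD-1 tumor 2, at 14.1 FPKM, reached into the range of the tumors without antibody, whose lowest was CK tumor 1. The log2 change with anti-PD-1 was -0.57 (SE 0.11, 95% interval -0.80 to -0.34, adjusted p = 0.00355), or 0.673 times the level without it.

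Spry4 (NCBI gene 24066) was at 3.03, 3.66 and 3.54 FPKM in CK, 3.09, 3.34 and 2.75 in PB-020, 3.35, 2.38 and 2.24 in anti-PD-1 and 2.29, 2.16 and 2.43 in the combination. Anti-PD-1 tumor 1 lay among the CK tumors, and the other 5 tumors with antibody lay below all 6 without. The log2 change was -0.38 (SE 0.10, 95% interval -0.60 to -0.16, adjusted p = 0.0172), and without anti-PD-1 tumor 1 it was -0.48 (adjusted p = 0.00182). Spry1 (NCBI gene 24063, chromosome 3, 37639947 to 37644599) was the lowest of the 10 genes, between 1.22 and 2.48 FPKM and 43 to 89 expected counts over the 12 tumors. Both of those limits were anti-PD-1 tumors. Its change with anti-PD-1 was 0.06 with a 95% interval of -0.29 to 0.41 (adjusted p = 0.821).

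Etv4 and Etv5 encode ETS factors of the PEA3 family that carry ERK signals to their target genes. Etv4 (NCBI gene 18612, chromosome 11, 101769747 to 101785310) was at 29.7, 28.1 and 27.1 FPKM in CK, 27.4, 27.6 and 27.3 in PB-020, 33.2, 28.4 and 33.0 in anti-PD-1 and 32.6, 29.3 and 31.8 in the combination. The tumors with antibody reached higher, with overlap at the low end. Its log2 change with anti-PD-1 was small, 0.18 (SE 0.05, 95% interval 0.07 to 0.29, adjusted p = 0.0256). The call held in 6 of the 12 fits that each left out 1 library. It was lost without anti-PD-1 tumor 3 (adjusted p = 0.0697), CK tumor 2 (0.0581), CK tumor 3 (0.0526), PB-020 tumor 1 (0.0589), PB-020 tumor 3 (0.0557) or combination tumor 1 (0.0635), with Etv4 changes of 0.16 to 0.18. Etv5 (NCBI gene 104156, chromosome 16, 22381313 to 22439570) ranged from 10.9 to 14.8 FPKM over all tumors, with the 4 groups overlapping, and its change was -0.0054 with anti-PD-1 (95% interval -0.17 to 0.16).

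Ccnd1 (NCBI gene 12443, chromosome 7, 144929931 to 144939831) encodes cyclin D1, which drives entry into the cell cycle, and was the most abundant of the 10. It was at 183, 174 and 155 FPKM in CK, 189.6, 167 and 182 in PB-020, 228, 208 and 217 in anti-PD-1 and 251, 199 and 234 in the combination. The 6 tumors with antibody were all above the 6 without. The log2 change was 0.35 (SE 0.07, 95% interval 0.21 to 0.50, adjusted p = 0.00345), a 1.28-fold increase. Beside it, the summed level of 6 proliferation markers was 447 to 637 FPKM in the tumors without antibody and 581 to 680.4 in those with it, and 4 of the 6 were higher with anti-PD-1. None of the 6 was at 0 in any tumor. The part of proliferating cells in the Ccnd1 result was not tested. A protein-coding gene on the other strand, LTO1, is annotated over part of Ccnd1, and its change with anti-PD-1 was 0.08 (adjusted p = 0.433).

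Fosl1 (NCBI gene 14283, chromosome 19, 5447698 to 5455938), which encodes FRA-1, an AP-1 subunit that ERK also stabilises as a protein, showed another pattern. It was at 99.6, 91.2 and 98.2 FPKM in CK, 121, 114.0 and 112 in PB-020, 124, 99.2 and 115 in anti-PD-1 and 111, 111 and 126 in the combination. CK was the low group, overlapped only by anti-PD-1 tumor 2, and the 3 treated groups overlapped one another. The change with anti-PD-1 over all 12 tumors was 0.12 (95% interval 0.00029 to 0.25, adjusted p = 0.131), and with PB-020 it was 0.16 (95% interval 0.04 to 0.29, unadjusted p = 0.0122, adjusted p = 0.34). A protein-coding gene on the other strand, Ccdc85b, is annotated over part of Fosl1. Its own change with anti-PD-1 was -0.11 (adjusted p = 0.398).

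**Figure D2:**
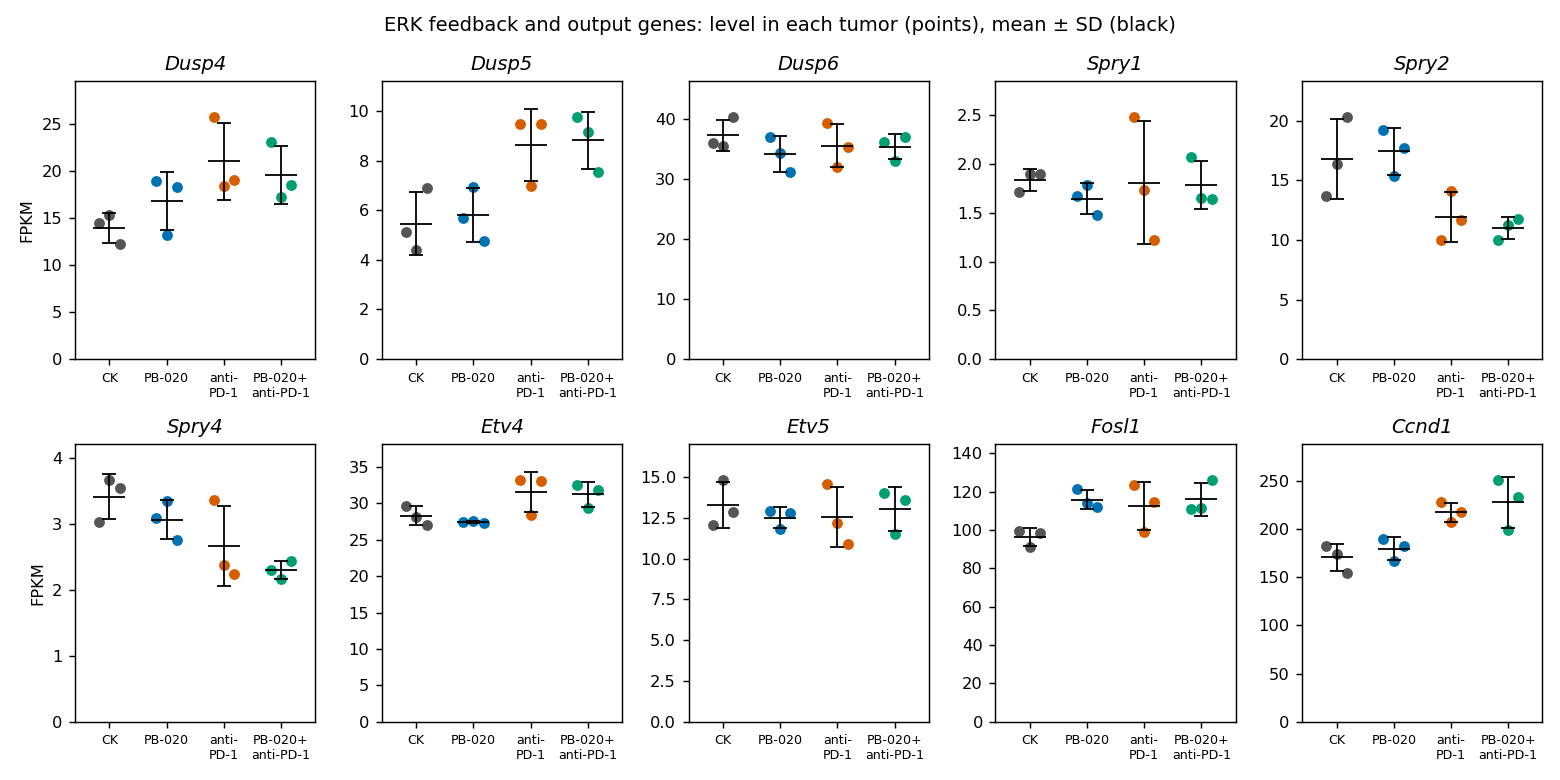
Level of each of the 10 genes in FPKM (vertical axis, from 0, own scale in each panel) in the 3 tumors of each group (points), with the mean and SD in black. In Dusp5 and Ccnd1 every antibody-treated tumor sits above every other tumor, in Spry2 and Spry4 the combination tumors sit below all CK tumors, and in Fosl1 CK is the lowest group.

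The calls for Dusp5, Ccnd1, Spry2 and Spry4 with anti-PD-1 held in 12 of 12 fits that left out 1 library and in 6 of 6 other fits with another tool, scale, filter or block. Without anti-PD-1 tumor 1 their log2 changes were 0.61, 0.34, -0.51 and -0.48 in that order, and without CK tumor 3 they were 0.74, 0.32, -0.49 and -0.37. The study's fold rule, 1.5-fold with an unadjusted p under 0.05, was taken here with edgeR's p in place of the study's t test. For anti-PD-1 over all 12 tumors, 1 of 10 members passed, Dusp5, beside 1048 of 13563 genes. As the antibody was given with and without PB-020, its effect in both settings was compared by an interaction term. In edgeR 0 of 10 members and 0% of all genes passed, and at an unadjusted p under 0.05 there were 0 members and 310 genes. DESeq2 also called 0 members. The smallest member p was that of Fosl1 (log2 difference -0.24, 95% interval -0.49 to 0.000084, unadjusted p = 0.0501).

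The second question was how each treatment differed from CK. These 3 comparisons share the same CK tumors, so their values are given side by side and are not independent. With PB-020 alone, 0 of 10 members passed, as did 0% of all genes tested. At an unadjusted p under 0.05 there were 1 member, Fosl1, and 741 genes, and DESeq2 called 0 members. Fosl1 had a log2 change of 0.29 (SE 0.08, 95% interval 0.11 to 0.46, unadjusted p = 0.00327, adjusted p = 0.874). All 3 PB-020 tumors were above all 3 CK tumors for Fosl1 and for no other member, where 14.3% of all genes separated the same tumors in either direction. The log2 changes of the other 9 members ran from -0.15 for Spry1 to 0.29 for Dusp4, whose 95% interval was -0.08 to 0.66. Dusp6 had an interval of -0.28 to 0.08 and Etv4 of -0.18 to 0.13. Averaged over both settings of antibody, 0 of 10 members and 0% of all genes passed with PB-020 in edgeR. At an unadjusted p under 0.05 this gave 1 of 10 members, again Fosl1, beside 1475 of 13563 genes. DESeq2 called 0 members and 61 genes.

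With anti-PD-1 alone, 2 of 10 members were higher than in CK, Ccnd1 (log2 change 0.37, SE 0.10, adjusted p = 0.0342) and Dusp4 (0.61, SE 0.17, adjusted p = 0.0495), and 0 were lower. Of all genes tested, 4.18% were higher and 4.08% lower. Dusp5 fell just outside the threshold (0.69, SE 0.20, adjusted p = 0.0504), and so did Spry2 at -0.47 (SE 0.15, adjusted p = 0.0734) and Fosl1 at 0.25 (SE 0.08, adjusted p = 0.074). On log2 CPM with TMM scaling, Dusp4, Dusp5, Fosl1 and Ccnd1 had all 3 tumors above CK, where 29.1% of all genes separated in either direction. For Fosl1 this rested on the scaling, since in FPKM it overlapped CK. The count of members called in this comparison was unsteady. It was 0 without anti-PD-1 tumor 3, CK tumor 2, PB-020 tumor 1 or PB-020 tumor 3, 1 without anti-PD-1 tumor 1, CK tumor 3 or combination tumors 2 or 3, and 5 without anti-PD-1 tumor 2 or in DESeq2. With only the 2 groups compared in the fit it was 0. Calls over all genes, 1120 with no library left out, moved in these fits too. They were 238 without anti-PD-1 tumor 3, 137 without CK tumor 2, 761 without PB-020 tumor 1 and 947 without PB-020 tumor 3. They were 625 without anti-PD-1 tumor 1, 637 without CK tumor 3 and 1905 without anti-PD-1 tumor 2. DESeq2 called 1672 genes, and the fit with only the 2 groups compared called 3. Without anti-PD-1 tumor 1 neither Ccnd1 (0.35, adjusted p = 0.0664) nor Dusp4 (0.45, adjusted p = 0.139) passed, and the 1 member called was Spry4, lower at -0.53 (adjusted p = 0.0319). Without CK tumor 3 the 1 member called was Dusp5, higher at 0.87 (adjusted p = 0.0391).

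The combination gave the most calls against CK. Dusp5 (log2 change 0.71, SE 0.20, adjusted p = 0.0276), Ccnd1 (0.44, SE 0.10, adjusted p = 0.0101) and Fosl1 (0.29, SE 0.08, adjusted p = 0.0272) were higher, and Spry2 (-0.60, SE 0.15, adjusted p = 0.0202) and Spry4 (-0.55, SE 0.14, adjusted p = 0.0199) were lower. That is 3 of 10 members higher beside 8.35% of all genes, and 2 of 10 lower beside 9.6%. Dusp4, at 0.51, missed the threshold (adjusted p = 0.06) and passed it with DESeq2, with only the groups compared and with a replicate block. The same 5 members and Dusp4 had no overlap with CK, where 40.7% of all genes separated. The number called was 0 without combination tumor 1, 1 without CK tumor 2 or combination tumor 2, and 2, Dusp5 and Ccnd1, without CK tumor 3. Calls over all genes, 2434 with no library left out, fell in these fits too. They were 1085 without combination tumor 1, 864 without CK tumor 2, 1160 without combination tumor 2 and 1577 without CK tumor 3. Without combination tumor 1 the adjusted p of the 5 members lay between 0.0506 (Ccnd1 and Fosl1) and 0.0996 (Dusp5), and their log2 changes kept their direction.

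**Figure D3:**
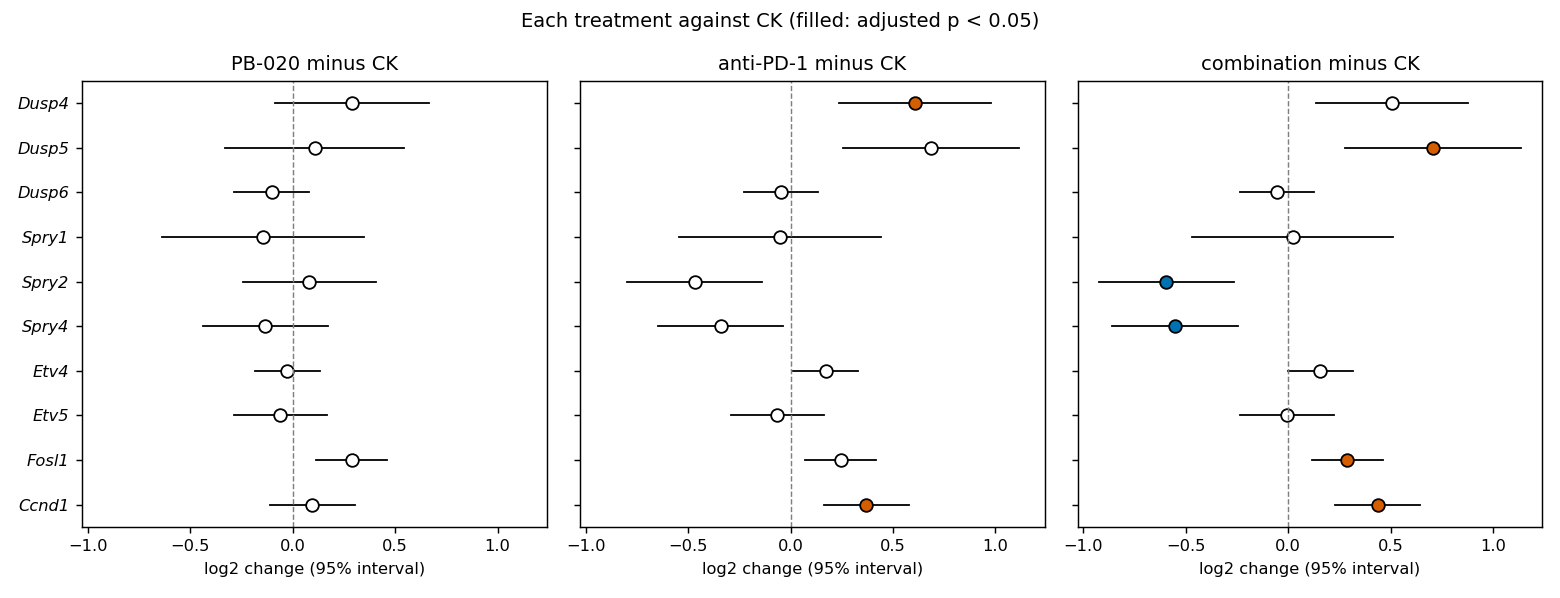
Log2 change of the 10 genes against CK (horizontal axis, with 95% interval) for PB-020, anti-PD-1 and the combination, 3 tumors per group; filled points have an adjusted p under 0.05. There are 0 filled points for PB-020, 2 for anti-PD-1 and 5 for the combination, with Spry2 and Spry4 on the left in the last panel.

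The third question was what each agent added to the other. When the combination was set against the antibody by itself, 0 of 10 members and 0% of all genes passed in edgeR, with 0 members and 984 genes at an unadjusted p under 0.05 and 0 members in DESeq2. The changes ran from -0.21 for Spry4 (95% interval -0.52 to 0.10) to 0.07 for Spry1 (95% interval -0.42 to 0.56). Dusp5 differed by 0.02, with an interval of -0.40 to 0.44, and Dusp6 by -0.0070 with an interval of -0.19 to 0.17. Against PB-020 by itself only Spry2 passed, lower by a log2 change of -0.68 (SE 0.15, adjusted p = 0.0371), as did 2.11% of all genes in that direction. That call was lost without CK tumor 2, PB-020 tumors 1 or 3, anti-PD-1 tumor 3 or any of combination tumors 1, 2 and 3, and with limma on log2(FPKM + 1). The number of genes called in either direction, 455 of 13563, fell to 0, 2 and 105 without combination tumors 1, 2 and 3, and to 1 and 11 without PB-020 tumors 1 and 3. Ccnd1 (0.34, adjusted p = 0.0686), Dusp5 (0.60, adjusted p = 0.0979) and Spry4 (-0.42, adjusted p = 0.11) did not pass. For Fosl1 the combination and PB-020 alone differed by 0.00033 (95% interval -0.17 to 0.17).

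The rest of the pathway was described from lists ordered by role, for the combination against CK. The counts are to be read beside the 8.35% of all genes that were higher and the 9.6% that were lower in this comparison. Of 24 tested receptor and adaptor genes, 0 were higher and 6 lower, with a median log2 change of -0.17. With anti-PD-1 alone against CK, 0 of these 24 were higher and 5 lower, beside 4.18% and 4.08% of all genes. PB-020 alone against CK had 0 called in either direction, beside 0% of all genes. Its log2 changes were below 0 in 21 of the 24 and above 0 in 3, with a median of -0.14 beside -0.0038 over all genes. At an unadjusted p under 0.05 in edgeR, 6 were lower and 0 higher, beside 741 of 13563 genes in either direction. Pdgfra and Pdgfrb encode the platelet-derived growth factor receptors. In the combination against CK their changes were -0.91 (SE 0.11, adjusted p = 0.00123) and -0.57 (SE 0.08, adjusted p = 0.00182). Both are also fibroblast markers, and the summed level of 9 such markers, none at 0 in any tumor, was 1869 to 2518 FPKM in CK and 955 to 1354 in the combination. Of those 9 markers 4 were lower, which are Pdgfra and Pdgfrb themselves with Col3a1 and Dcn, and 1 was higher. The list did not move as one, with 5 of 9 log2 changes above 0 and a median of 0.24, and the part of fibroblasts in the result was not tested. The adaptors Irs1 (-0.52, adjusted p = 0.00182), Gab1 (-0.57, adjusted p = 0.00454) and Frs2 (-0.40, adjusted p = 0.00599) also fell, Irs1 being the substrate that couples IGF-1R to its downstream kinases. Igf1r itself had a change of -0.13 (adjusted p = 0.157), Irs2 of -0.19 (adjusted p = 0.17), and the ligands Igf1 and Igf2 of 0.77 (SE 0.68, adjusted p = 0.462) and -0.56 (SE 0.72, adjusted p = 0.614).

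In the kinase relay and its regulators, 2 of 25 tested genes were higher and 4 lower, with a median of -0.03, beside the same 8.35% and 9.6%. Map2k1, which encodes MEK1, rose by 0.38 (SE 0.08, adjusted p = 0.00754), and the Ras-related gene Rras2 by 0.53 (SE 0.12, adjusted p = 0.00939). Mapk3, which encodes ERK1, had a change of -0.25 (SE 0.08, adjusted p = 0.0349), and Braf, which encodes a RAF kinase, of -0.19 (adjusted p = 0.0661). Of 15 tested effectors, 1 was higher and 0 lower, with a median of 0.00050. That one was Srf, the serum response factor gene, at 0.25 (SE 0.07, adjusted p = 0.0258). Its mean was 17.1 FPKM ± 0.175 (SD, n = 3) in CK and 20.3 FPKM ± 1.49 (SD, n = 3) in the combination. With a single agent, Srf had a mean of 18.3 FPKM ± 0.0985 (SD, n = 3) in PB-020 and 22.0 FPKM ± 1.89 (SD, n = 3) in anti-PD-1.

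Of 31 other tested ERK output genes, 4 were higher and 2 lower, with a median of 0.10 beside -0.0026 over all genes, and shares of 8.35% and 9.6% called over all genes. The growth factor gene Hbegf rose by 0.82 (SE 0.20, adjusted p = 0.0177), the phosphatase gene Dusp9 by 0.68 (SE 0.13, adjusted p = 0.00521) and the receptor gene Epha2 by 0.49 (SE 0.09, adjusted p = 0.00499). Etv1, the third gene of the PEA3 family, was lower by a log2 change of -0.61 (SE 0.09, adjusted p = 0.00182), where Etv4 was at 0.16 (adjusted p = 0.148). The difference between these genes was not tested. The immediate early genes, which answer ERK within minutes, did not pass: Egr1 was at -0.38 (SE 0.24, adjusted p = 0.3), Fos at 0.21 (SE 0.25, adjusted p = 0.605), Myc at 0.23 (SE 0.10, adjusted p = 0.128) and Dusp1 at -0.50 (SE 0.18, adjusted p = 0.0768). For Egr1, CK tumors 1, 2 and 3 were at 9.30, 10.6 and 18.3 FPKM and the combination tumors at 7.78 to 11.1. The Sprouty-related inhibitors Spred1 (-0.22, adjusted p = 0.0575) and Spred2 (-0.19, adjusted p = 0.104) had values below 0, as Spry2 and Spry4 did, without passing.

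**Figure D4:**
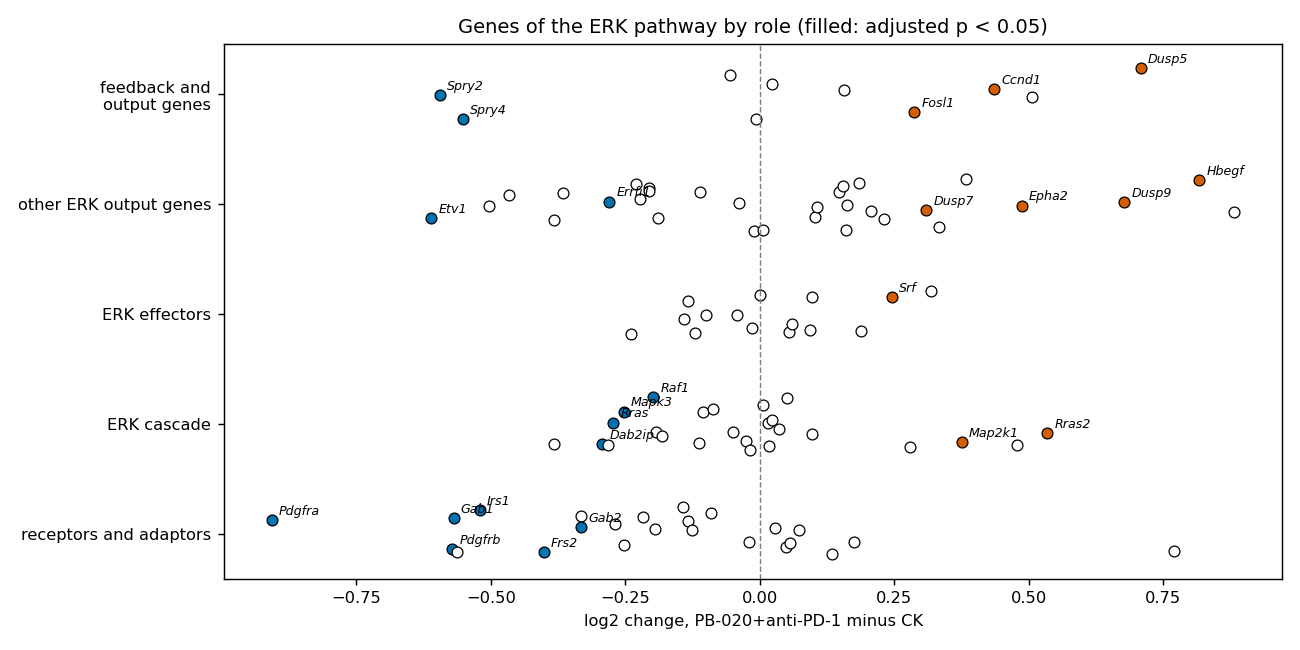
Log2 change between the combination and CK (horizontal axis) for every tested gene of the ERK pathway lists, 1 row per role, with vertical scatter only to separate points. Filled and named points have an adjusted p under 0.05; the receptors and adaptors hold 6 filled points, all below 0, and the other rows but the effectors hold filled points on both sides.

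The members were also compared in pairs within groups, where a pair that does not pass is not shown to vary independently. After each gene's group mean was removed from its log2 CPM, Pearson's r over the 12 tumors had a median of 0.24 over the 45 pairs and was positive in 32. In exact two-sided permutations of tumors within groups 0 pairs passed after adjustment over the 45 (smallest adjusted p = 0.139), and 6 had an unadjusted p under 0.05. The pair with the smallest p was Dusp4 and Ccnd1, with r = 0.80 (exact permutation p = 0.00309) and Spearman's rho of 0.83 (exact permutation p = 0.00309, adjusted p = 0.139). Without the 2 tumors farthest from the median of Dusp4, r was 0.82. Spry1 and Spry4 had r = 0.81 (exact permutation p = 0.0278, adjusted p = 0.231), rho = 0.70 (exact permutation p = 0.0432, adjusted p = 0.457), and r = 0.44 without the 2 tumors farthest from the median of Spry1. The points of a pair come from the same libraries and share their depth.

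The genes most like Dusp6 in pattern lay outside the pathway lists. Over the 12 tumors, the 5 genes with the highest Pearson's r to Dusp6 on log2 CPM were Slc29a3 (0.90), Gusb (0.87), Ssbp3 (0.86), Cbfa2t3 (0.84) and Spsb1 (0.82). These are the highest of the values over all other tested genes, come from the same libraries and are a description only.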

How the data were processed

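Tumor RNA was sequenced by the study on an Illumina HiSeq instrument with paired 150-base reads. Per the labels and the study's methods, the authors used Bowtie2 and HISAT and the GRCm38.p6 build, estimated levels with RSEM, and deposited expected counts, FPKM and TPM per gene. TPM and FPKM are the authors' own normalized values. FPKM, which is per transcript length, is printed as the level, and TPM was not used. Expected counts, 91% of them whole, were rounded and tested with edgeR 4.0.16 (TMM scaling, quasi-likelihood, all 4 groups in 1 fit, filterByExpr minimum count 10), with Benjamini-Hochberg adjustment over 13563 genes. Main effects and the interaction were contrasts of the group means. DESeq2 1.42.0, limma 3.58.1 on log2(FPKM + 1) and log2(FPKM + 0.1), no filter, library-size scaling, only the groups compared, a replicate block, each library left out, and the study's fold rule and per-gene test were alternatives. No library was dropped. The gene lists and members were chosen with earlier results of these data known. The genes named were the 10 members, 16 fixed pathway genes (2 of them not reported here), up to 12 further pathway genes with the smallest p among those that passed in the combination against CK, and the 5 genes most like Dusp6; Ccdc85b, LTO1 and the single marker genes were named after their values or annotation were seen. The labels do not say more of the tumors than their group and number, so p-values set each change against the spread between these tumors. In the main edgeR fit that spread was estimated from all 12 libraries, also for comparisons of 2 groups. Promoters and gene positions came from RefSeq tables of GRCm38.p6, and overlapping genes from the GENCODE annotation of the same build. Windows were searched for 5 of the 10 members (Dusp5, Dusp6, Etv5, Spry1 and Spry2). Spry4 was left out of that search by its chromosome. Fits were tested on simulated data.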

Additional observations from a re-analysis of the deposited data

How the results depend on the processing

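Of 164 alternative values for counts of members or pairs called, 129 stayed within 1.5 times the reported count and 35 did not. With anti-PD-1 over all tumors the count of 6 members held under DESeq2, both limma scales, no filter, library-size scaling and the replicate block, was 1 under the fold rule, and ranged from 4 to 7 over libraries left out. Over all genes, the 3279 calls became 1048 under the fold rule. Against CK, the anti-PD-1 count of 2 became 5 with DESeq2, 1 with library-size scaling, with either limma scale or with no filter, and 0 with only the groups compared, and ranged from 0 to 5 over libraries left out. The 1120 calls over all genes became 1672 with DESeq2, 1160 with library-size scaling, 1036 and 1063 with the limma scales, 945 with no filter and 3 with only the groups compared. The combination count of 5 became 2 under the fold rule and 2 under the study's per-gene test on FPKM, and ranged from 0 to 6. Over all genes, the 2434 calls became 1155 and 1066 under those rules. Between the combination and PB-020 the count of 1 became 2 with DESeq2, 2 under the fold rule, 2 under the study's per-gene test on FPKM, 4 with only the groups compared and 0 with limma on log2(FPKM + 1), and ranged from 0 to 3. Over all genes, the 455 calls became 1109, 804, 833, 1535 and 332 in that order. The causes of these moves were not tested. Counts of 0 for PB-020 against CK, PB-020 over all tumors, the combination against anti-PD-1, the interaction and the pairs stayed at 0 under every alternative run.

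Among log2 changes of single members, 50 of 930 alternatives turned the sign, each of a value that had not passed. Dusp6 with anti-PD-1 over all tumors became -0.0057 with library-size scaling, -0.0078 and -0.0076 with limma on log2(FPKM + 0.1) and log2(FPKM + 1), -0.0012 with no filter and -0.0014 with the replicate block, and Spry1 in the combination against CK became -0.044 and -0.029 on the same limma scales. The others came from leaving out 1 library. For PB-020 over all tumors those ranges were -0.0072 to 0.16 for Dusp5, -0.051 to 0.0048 for Etv4, -0.040 to 0.054 for Etv5, -0.14 to 0.11 for Spry1 and -0.086 to 0.054 for Spry2. For PB-020 against CK they were -0.045 to 0.29 for Dusp5, -0.069 to 0.014 for Etv4, -0.12 to 0.026 for Etv5 and -0.041 to 0.23 for Spry2. For anti-PD-1 over all tumors they were -0.034 to 0.033 for Dusp6, -0.060 to 0.037 for Etv5 and -0.089 to 0.16 for Spry1. For anti-PD-1 against CK they were -0.12 to 0.010 for Dusp6, -0.17 to 0.022 for Etv5 and -0.35 to 0.15 for Spry1. For the combination against CK they were -0.089 to 0.0012 for Dusp6, -0.062 to 0.079 for Etv5 and -0.079 to 0.088 for Spry1.

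Replicate numbers did not pair the tumors: deviations of same-numbered tumors had a median correlation of -0.037, with 2 of 18 over 0.1. The replicate block gave 6 members for the combination against CK, adding Dusp4, and changed no other count. With 3 tumors per group and 43 to 89 expected counts, Spry1 had the widest intervals.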
